A study of Homo sapiens with 24 samples.

Results

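The cytosolic heat shock genes examined here are 10 genes chosen by name: the transcription factor HSF1, the HSP70 genes HSPA1A, HSPA1B and HSPA8, the HSP110 gene HSPH1, the HSP90 genes HSP90AA1 and HSP90AB1, the co-chaperone gene DNAJB1, the small heat shock protein gene HSPB1 and the co-chaperone gene BAG3. Of these, 9 had a row among the 14585 genes of the count table, and HSPA1B was not analysed here. The genes were measured by RNA sequencing in A549 cells, a human lung adenocarcinoma line, and in Huh7 cells, a human hepatoma line. Each line was represented by control cells and by cells treated with 1 of 3 ethanol extracts dissolved in DMSO, made from P. umbellatus, P. chinensis or B. chinense, which gave 8 groups of 3 replicates and 24 libraries. DMSO in the controls, the dose and time used for sequencing and the origin of replicates as separate cultures are not given in the sources used here, so p-values measure only the spread between these samples, which may be technical. Each line is a single established cell line, and in bulk RNA fewer cells carrying a transcript cannot be told apart from less of it per cell.

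HSF1 is the main activator of heat shock genes in mammalian cells. It is held inactive by chaperones, and when unfolded proteins occupy those chaperones it forms trimers and binds heat shock elements, which are inverted repeats of the short unit GAA. HSP70 and HSP90 proteins fold client proteins with energy from ATP, J-domain proteins such as DNAJB1 deliver clients to HSP70, HSP110 proteins and BAG3 help HSP70 to exchange its nucleotide, and HSPB1 holds unfolded proteins without ATP. HSPA8 and HSP90AB1 are known as the members made in unstressed cells, and HSPA1A, HSPA1B and HSP90AA1 as the more inducible ones.

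Matches to the heat shock element in the promoters of the members are shown because HSF1 binds elements of this kind. The sequences are from RefSeq, GRCh38.p14, and were available as 14 windows for 9 members. Each window ran from 250 bases before a start site to 50 after it, and positions are counted with the start site as 0. The upstream 250 bases of the shorter HSP90AA1 transcript lie within the gene, in no annotated exon, and hold a stretch at -88 to -61 in which heat shock units overlap. In the lines that follow the sequences run 5′ to 3′ on the strand of the gene, and capitals mark the units GAA, any 2 bases, TTC, any 2 bases, GAA, or the same units starting with TTC, with at most 1 mismatch in the 9 fixed bases.
HSP90AA1, chr14:102087045-102087294, minus strand: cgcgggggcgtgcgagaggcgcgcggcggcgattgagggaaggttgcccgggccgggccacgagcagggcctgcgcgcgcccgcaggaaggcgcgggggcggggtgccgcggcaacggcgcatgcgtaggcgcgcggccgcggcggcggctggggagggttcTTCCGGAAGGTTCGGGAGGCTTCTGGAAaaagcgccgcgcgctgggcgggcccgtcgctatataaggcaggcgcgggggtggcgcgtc
HSP90AB1, chr6:44247823-44247851, plus strand: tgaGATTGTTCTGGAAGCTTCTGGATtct
HSPA8, chr11:123062346-123062374, minus strand: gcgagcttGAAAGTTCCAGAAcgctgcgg
HSPA8, chr11:123062171-123062199, minus strand: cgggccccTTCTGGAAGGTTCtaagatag
HSPA1A, chr6:31815429-31815457, plus strand: aaaccctgGAATATTCCCGACctggcagc
HSPA1B, chr6:31827625-31827653, plus strand: aacccctgGAATATTCCCGACctggcagc
DNAJB1, chr19:14518454-14518482, minus strand: gcggggcgGAAGGTTCTGGAGggggctgg
DNAJB1, chr19:14518429-14518457, minus strand: ctggcgggCTCTGGAAGCTTCcgccggac
HSPB1, chr7:76302483-76302511, plus strand: taacgagaGAAGGTTCCAGATgagggctg

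Such a stretch of 3 units with at most 1 mismatch was found in 8 of the 14 windows of the members, against 6.24% of the 35116 windows of all genes. With no mismatch, 3 units were found in 3 of the 14, those of HSP90AA1, HSP90AB1 and HSPA8, against 0.49% of all windows. The elements of HSPA1A and HSPB1 lie upstream of the gene, those of HSP90AB1 and DNAJB1 lie within the gene outside annotated exons, and those of HSPA8 lie in exons of longer annotated transcripts. Both strands were searched and overlapping matches were merged. No window of HSPH1 or BAG3 held such a stretch, which says only that these letters are not within these windows, and HSF1 had no window. A match is a description of the sequence and was not tested as a binding site.

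Library totals ranged from 6803648 to 24345364 counts, and the median was 10515131. The summed level of 8 hepatocyte genes was 13050 to 24370 CPM (counts scaled to a common library size) in the Huh7 libraries and 25.2 to 38.7 CPM in the A549 libraries, and that of 6 genes of A549 cells was 10950 to 14740 CPM in A549 and 1092 to 1796 CPM in Huh7. Replicate 2 of Huh7 cells with P. umbellatus stood apart from the other libraries of its group. Its counts differed from those of replicates 1 and 3 by 13.4 and 17.8 times the sampling noise (median chi-square per gene), whereas all other pairs of replicates in the study differed by 2.73 to 5.39 times. Counts of members and of list genes called in Huh7 cells, and the changes of the members with P. umbellatus, are therefore mostly also given without this library. Changes of single list genes are given with all libraries only.

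Control cells of both lines were first compared for the level of each member. Levels are compared between genes as CPM per kb of transcript, and the CPM were scaled over the 24 libraries by the TMM method. In A549 control cells the HSP70 gene HSPA8 had the highest level, at 1155 ± 25.0 CPM per kb (SD, n = 3), followed by HSP90AA1 at 888 ± 26.2 and HSP90AB1 at 793 ± 8.78. HSPB1 came next at 265 ± 12.7 CPM per kb. The stress-inducible HSP70 gene HSPA1A, at 92.9 ± 8.15, and DNAJB1, at 89.8 ± 5.64, overlapped in their libraries. BAG3 at 55.6 ± 0.493, HSPH1 at 39.1 ± 4.55 and HSF1 at 21.2 ± 2.15 CPM per kb had the lowest levels.

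In Huh7 control cells HSPA8 was again the highest, at 815 ± 9.22 CPM per kb (SD, n = 3), but HSP90AB1 at 581 ± 17.1 stood above HSP90AA1 at 377 ± 4.35, the opposite of their order in A549. HSPB1 followed at 163 ± 4.75 and DNAJB1 at 72.7 ± 1.78 CPM per kb. BAG3 at 23.9 ± 1.49 and HSPH1 at 23.5 ± 0.244 overlapped, and HSF1 was the lowest of the 8 members tested in Huh7, at 17.7 ± 0.181 (SD, n = 3). HSPA1A was listed at 0 in 11 of the 12 Huh7 libraries and had 16 counts in control replicate 1, so it was not tested in Huh7 cells. Of the 31-base words of its transcript, 76.9% also occur in HSPA1B, so the HSPA1A counts of both lines depend on how the estimated counts were split between these genes. For HSPA8, HSP90AB1, HSP90AA1 and HSPB1, 44.7%, 42.0%, 39.3% and 22.5% of the words also occur in other genes. The partner sharing most was a processed pseudogene for each, so their levels can depend on such a split too.

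**Figure D1:**
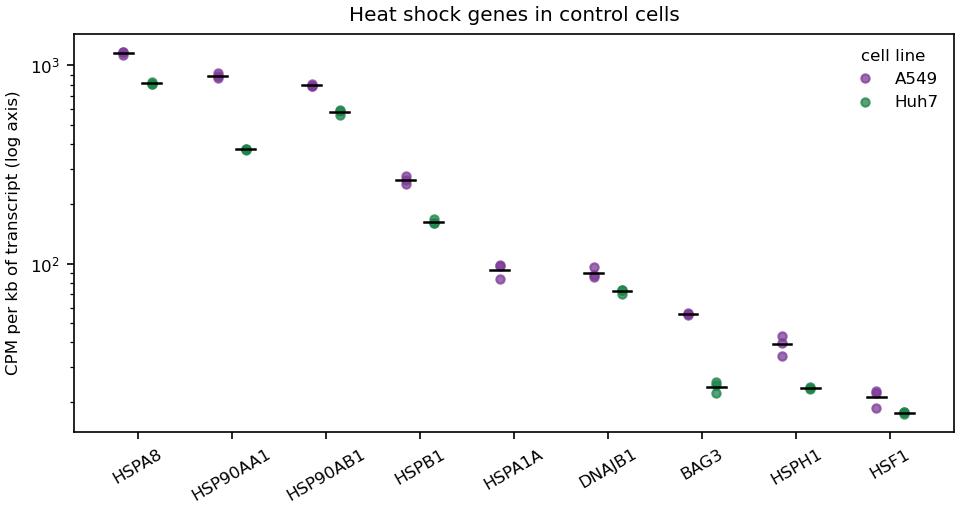
Level of each heat shock gene in control cells, as CPM per kb of transcript on a log axis, with 1 point per library (3 per line) and a black line at the mean. HSPA8 is the highest in both lines at 1155 and 815 CPM per kb, and HSP90AA1 stands above HSP90AB1 in A549 but below it in Huh7, while HSPA1A, at 0 in 11 of the 12 Huh7 libraries, is drawn for A549 only.

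All 8 members tested in both lines were higher in A549 than in Huh7 control cells, in a comparison in which 68.7% of all 12924 genes were called in either direction at an adjusted p below 0.05. The test was edgeR's quasi-likelihood test on all 24 libraries, two-sided, with Benjamini-Hochberg adjustment over all genes. HSP90AA1 differed most, by 1.24 ± 0.06 on the log2 scale (SE, adjusted p = 7.98e-14), and BAG3 by 1.21 ± 0.11 (adjusted p = 2.98e-09). The log2 differences of HSPH1, HSPB1, HSPA8, HSP90AB1 and DNAJB1 were 0.73, 0.70, 0.50, 0.45 and 0.31. HSF1 differed least, by 0.26 ± 0.11 (adjusted p = 0.0344), and this call was lost with the replicate number as a block, at an adjusted p of 0.218, and in 6 of 24 fits that left out 1 library, at adjusted p of 0.0608 to 0.132. These libraries were A549 control replicates 2 and 3, A549 P. umbellatus replicates 1 and 3, Huh7 control replicate 1 and Huh7 P. umbellatus replicate 1.

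The question in A549 cells was how each herb changed the members against control. No member rose with any herb. HSP90AA1 and HSP90AB1 fell with all 3 herbs, HSPA1A, HSPB1 and DNAJB1 each with 2 of the 3, and HSPA8 with B. chinense. Some calls of HSPA1A, HSPB1, DNAJB1 and HSPA8 were lost in other settings or without 1 library. Summed, the members made up 0.800% to 0.830% of all counts in the control libraries, and 0.716% to 0.758% with P. chinensis, 0.692% to 0.726% with B. chinense and 0.683% to 0.713% with P. umbellatus. Fold changes and adjusted p-values are from edgeR's quasi-likelihood test on the 12 libraries of the line, two-sided, adjusted over the 13633 genes tested, and the 3 herbs share the same control libraries.

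HSP90AA1 (chromosome 14, 102080742 to 102139699, GRCh38), the inducible HSP90 gene, had 2869, 2952 and 2782 CPM in the A549 control replicates. It had 2094, 2204 and 2254 CPM after P. chinensis, 2172, 2252 and 2298 after B. chinense, and 2332, 2164 and 2122 after P. umbellatus. All 9 treated libraries lay below all 3 controls. HSP90AA1 fell by 0.42 ± 0.05 on the log2 scale with P. chinensis (SE, adjusted p = 6.55e-06), by 0.39 ± 0.05 with B. chinense (adjusted p = 1.88e-05) and by 0.43 ± 0.05 with P. umbellatus (adjusted p = 6.87e-06). HSP90AB1 (chromosome 6, 44246166 to 44253888), its constitutive counterpart, had 2051, 2017 and 2008 CPM in the controls. It had 1752, 1751 and 1778 CPM after P. chinensis, 1668, 1696 and 1769 after B. chinense, and 1757, 1755 and 1680 after P. umbellatus. The treated and control libraries did not overlap here either, and HSP90AB1 fell by 0.23 ± 0.04 (adjusted p = 0.000183), 0.28 ± 0.04 (adjusted p = 4.27e-05) and 0.28 ± 0.04 (adjusted p = 3.76e-05) on the log2 scale. Leaving out any 1 library kept both genes past the threshold with all 3 herbs.

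Of the HSP70 genes, HSPA8 (chromosome 11, 123057489 to 123063230), the constitutive cytosolic HSP70, had 2641, 2652 and 2549 CPM in the A549 controls. With B. chinense it had 2361, 2450 and 2442 CPM, all below the controls, and fell by 0.15 ± 0.04 on the log2 scale (SE, adjusted p = 0.00769). This call was lost with upper quartile scaling, at an adjusted p of 0.0726. HSPA8 overlapped the controls with P. chinensis, at 2446, 2559 and 2609 CPM, and with P. umbellatus, at 2573, 2602 and 2505 CPM, and its log2 fold changes of -0.07 and -0.08 did not pass (adjusted p = 0.18 and 0.107). HSPA1A (chromosome 6, 31815543 to 31817946), the heat-inducible HSP70, had 233, 236 and 201 CPM in the controls. With P. chinensis it had 180, 191 and 193 CPM, below all controls, and fell by 0.27 ± 0.09 on the log2 scale (adjusted p = 0.0245). The call did not hold without control replicate 1 (adjusted p = 0.0782), control replicate 2 (0.104) or P. chinensis replicate 1 (0.0848), nor with upper quartile scaling (0.0799). With P. umbellatus HSPA1A had 207, 169 and 160 CPM, of which replicate 1 lay within the controls, and fell by 0.37 ± 0.09 (adjusted p = 0.00475). With B. chinense it had 205, 203 and 211 CPM, within the range of the controls (log2 fold change -0.15, adjusted p = 0.227). HSPH1, the HSP110 gene, overlapped the controls with all 3 herbs and did not pass, with log2 fold changes of -0.10, -0.18 and -0.25 and adjusted p of 0.429, 0.172 and 0.0553.

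Of the co-chaperones in A549 cells, DNAJB1 (chromosome 19, 14514769 to 14560391), which delivers clients to HSP70, had 191, 197 and 216 CPM in the controls. With P. umbellatus it had 184, 187 and 182 CPM, all below the controls, and fell by 0.18 ± 0.05 on the log2 scale (SE, adjusted p = 0.0151), a call that was lost without control replicate 3 (adjusted p = 0.0805). The call was also lost in 3 of the other settings. With B. chinense its 188, 176 and 193 CPM overlapped the controls, and a fall of 0.15 ± 0.05 on the log2 scale passed with an adjusted p of 0.04. That call was lost in 8 of 12 fits that left out 1 library, at adjusted p of 0.05 to 0.182, namely without replicates 1 and 2 of B. chinense, replicates 2 and 3 of control, and replicates 2 and 3 of each of the other herbs. It was also lost in 9 of the other settings. HSPB1 (chromosome 7, 76302673 to 76304295), the small heat shock protein, had 196, 206 and 215 CPM in the controls. With B. chinense it had 151, 177 and 184 CPM, below all controls, and fell by 0.31 ± 0.08 (adjusted p = 0.011), but not without B. chinense replicate 1 (adjusted p = 0.0543). With P. umbellatus it had 197, 160 and 173 CPM and fell by 0.27 ± 0.08 (adjusted p = 0.0212). This call was lost without control replicates 2 or 3 (adjusted p = 0.0562 and 0.0793) and without P. umbellatus replicates 2 or 3 (0.0975 and 0.0634). With P. chinensis HSPB1 had 179, 187 and 183 CPM, below the controls, yet its log2 fold change of -0.19 did not pass (adjusted p = 0.0798).

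HSF1 was the only member whose 9 treated A549 libraries all lay above the controls. It had 39.9, 48.4 and 47.2 CPM in the controls, 49.8, 52.1 and 50.9 after P. chinensis, 49.7, 52.5 and 52.1 after B. chinense, and 52.8, 51.8 and 51.0 after P. umbellatus. None of its log2 fold changes, 0.14, 0.15 and 0.14, passed the test (adjusted p = 0.179, 0.19 and 0.198), and they were 0.07, 0.07 and 0.06 without control replicate 1. BAG3 (chromosome 10, 119651380 to 119677819), which links HSP70 to autophagy, had 142, 141 and 144 CPM in the controls. Its log2 fold changes were -0.04, 0.01 and -0.02 in the order P. chinensis, B. chinense, P. umbellatus, with 95% intervals that all contained 0, and its treated libraries lay on both sides of the controls.

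Over the 9 members tested in A549 cells, 0 rose and 3 fell with P. chinensis, where 15.8% of all genes rose and 17.1% fell. With B. chinense 0 rose and 5 fell, where 13.1% of all genes rose and 15.0% fell. The count was 3 without B. chinense replicate 1 and also 3 with upper quartile scaling, in which 16.2% of all genes rose and 11.4% fell. By DESeq2 it was 4, where 13.2% of all genes rose and 14.3% fell. With P. umbellatus 0 rose and 5 fell, where 13.4% of all genes rose and 14.8% fell. The median log2 fold change of the members was -0.10, -0.15 and -0.25 with the 3 herbs, and that of all genes 0.01, -0.00 and -0.01. The groups did not overlap for 5, 5 and 4 of the 9 members, and for 45.3%, 40.4% and 41.4% of all genes, so that these numbers of members are near the background.

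**Figure D2:**
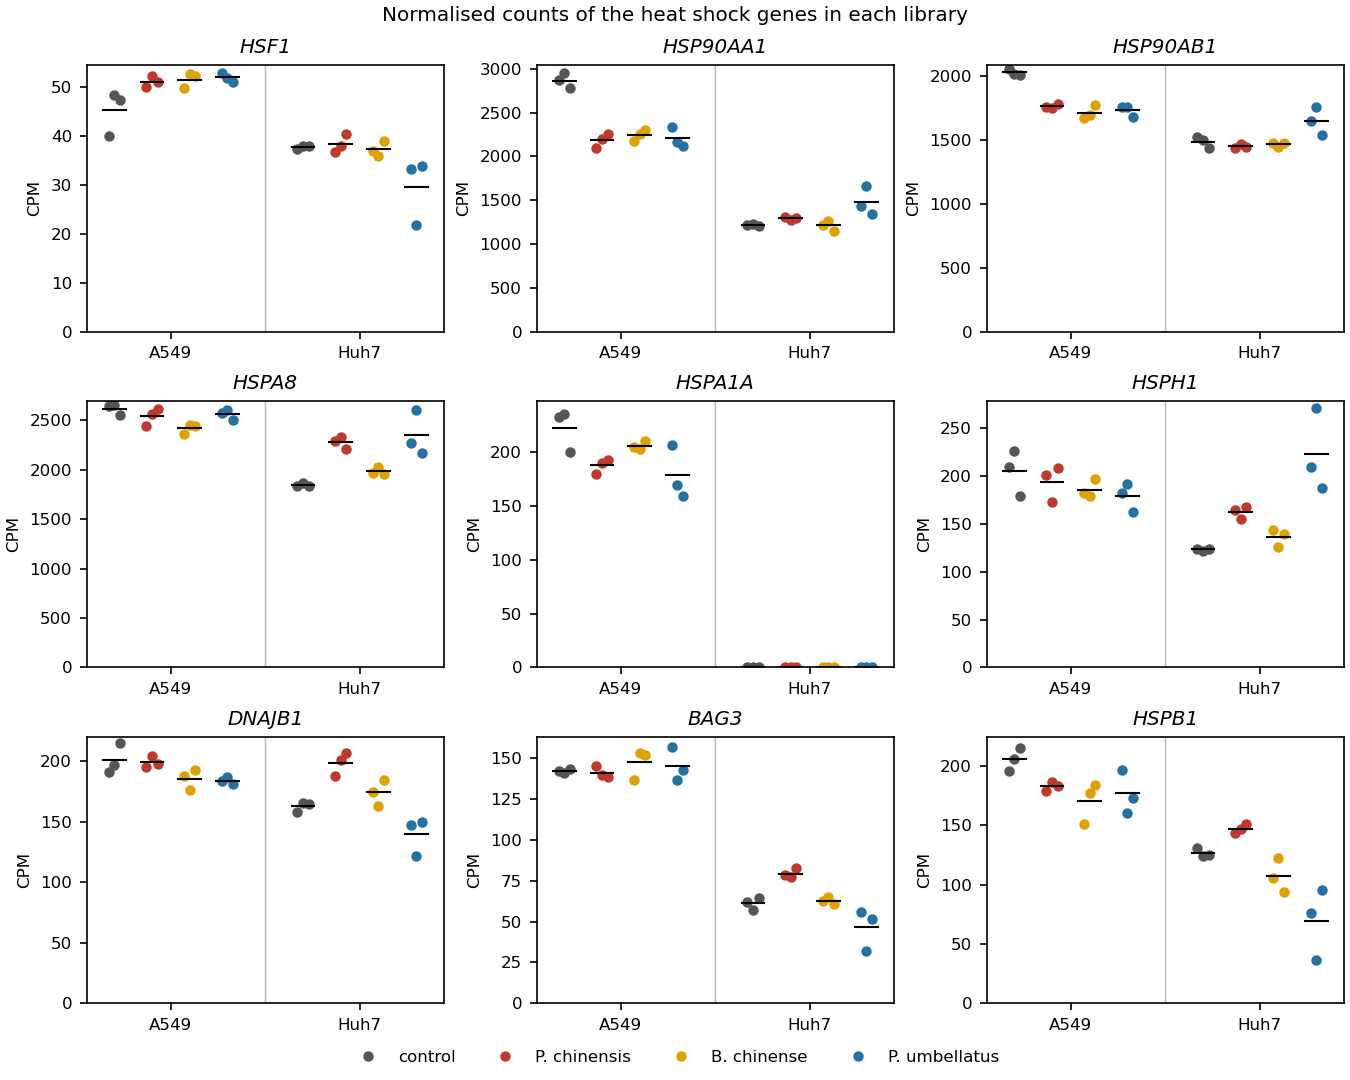
CPM of each heat shock gene in every library, from 0, with 3 points per group coloured by treatment and a black line at the group mean. HSP90AA1 and HSP90AB1 in A549 cells lie lower in all 9 treated libraries than in the 3 controls, and in Huh7 cells with P. umbellatus replicate 2 lies farthest from control for most genes, as at 271 CPM for HSPH1.

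**Figure D3:**
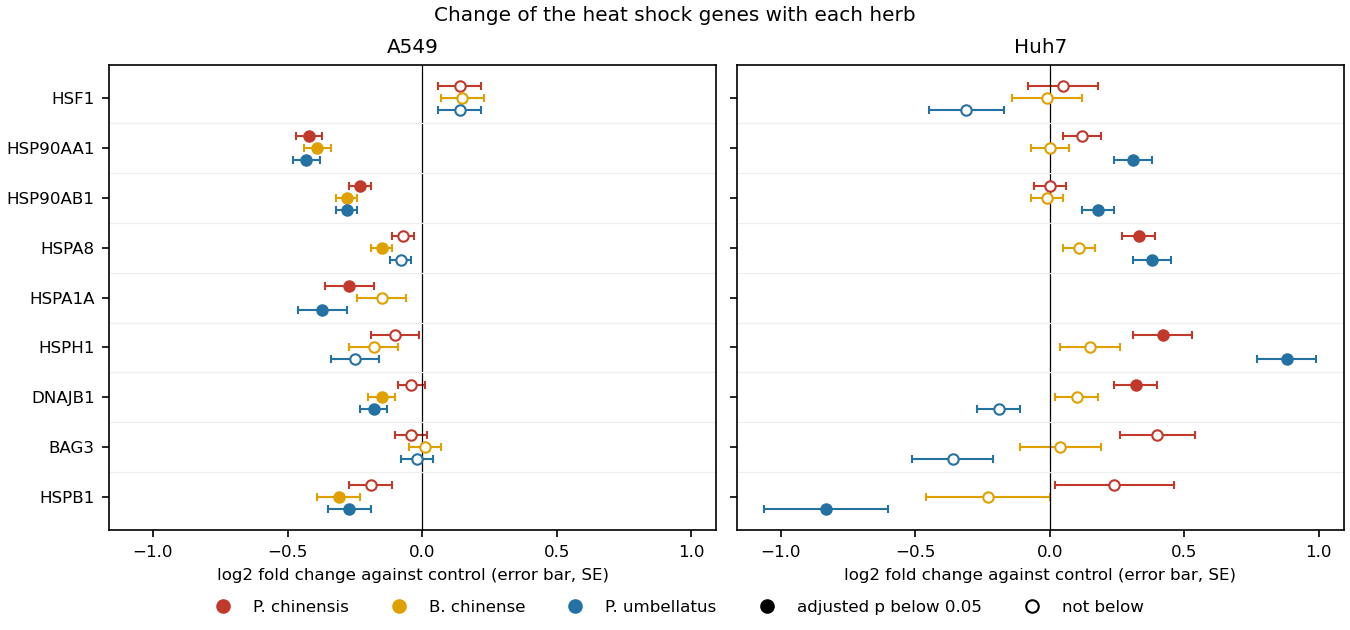
Log2 fold change of each heat shock gene against control (x axis) for each herb, with the SE as error bar, in A549 (left) and Huh7 (right), and with filled points for an adjusted p below 0.05. In A549 the filled points lie left of 0, from -0.15 to -0.43, and in Huh7 they lie right of 0, from 0.18 to 0.88, except for HSPB1 with P. umbellatus at -0.83.

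In Huh7 cells P. chinensis raised HSPA8, HSPH1 and DNAJB1, and no member fell. HSPA8 had 1834, 1870 and 1833 CPM in the controls and 2292, 2332 and 2206 with P. chinensis. HSPH1 (chromosome 13, 31134973 to 31162388) had 124, 122 and 124 CPM in the controls and 164, 156 and 167 with P. chinensis. DNAJB1 had 158, 165 and 165 CPM in the controls and 188, 202 and 207 with P. chinensis. For these 3 genes, which encode HSP70, its nucleotide exchange factor and its J-domain partner, every treated library lay above every control. By edgeR's quasi-likelihood test on the 12 Huh7 libraries, adjusted over 13875 genes, HSPA8 rose by 0.33 ± 0.06 on the log2 scale (SE, adjusted p = 0.00338), HSPH1 by 0.42 ± 0.11 (adjusted p = 0.0172) and DNAJB1 by 0.32 ± 0.08 (adjusted p = 0.0176).

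BAG3 had 62.2, 57.1 and 64.6 CPM in the Huh7 controls and 78.5, 77.2 and 82.6 with P. chinensis, with no overlap and a log2 fold change of 0.40 ± 0.14 (SE) that did not pass (adjusted p = 0.0708). HSPB1, at 144, 147 and 151 CPM against 131, 124 and 125 in the controls, and HSP90AA1, at 1305, 1280 and 1297 against 1220, 1229 and 1202, also had no overlap and did not pass (log2 fold change 0.24 and 0.12, adjusted p = 0.499 and 0.299). HSP90AB1, at 1438, 1467 and 1445 CPM against 1518, 1497 and 1434 in the controls, and HSF1, at 36.6, 37.8 and 40.4 CPM against 37.2, 37.9 and 37.9, overlapped with the controls, and their log2 fold changes were -0.00 and 0.05. The groups did not overlap for 6 of the 8 members tested and for 53.2% of all genes. Of these 8, 3 rose and 0 fell, where 10.5% of all genes rose and 10.5% fell, and the median log2 fold change was 0.28 against 0.01 over all genes. The number called was 6 without P. umbellatus replicate 2, adding HSP90AA1 (adjusted p = 0.0466), HSPB1 (0.0472) and BAG3 (0.000245), in a fit in which 16.6% of all genes rose and 18.3% fell. It was 1, HSPA8, without any 1 of the 3 controls or without P. chinensis replicate 3, where the adjusted p of HSPH1 and DNAJB1 came to between 0.0529 and 0.0724. HSPH1 was also lost without P. chinensis replicate 1 (adjusted p = 0.0611) and DNAJB1 without P. chinensis replicate 2 (0.0846).

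With B. chinense no member changed in Huh7 cells, by edgeR's quasi-likelihood test, by DESeq2 or at an unadjusted p below 0.05, where 0.519% of all genes rose and 0.757% fell. HSPA8 had 1964, 2030 and 1952 CPM, all above the controls, with a log2 fold change of 0.11 and a 95% interval of -0.02 to 0.24 (adjusted p = 0.567). It passed in a fit of the 6 libraries compared (adjusted p = 0.0291). HSPH1 had 144, 126 and 140 CPM and a log2 fold change of 0.15, with an interval of -0.07 to 0.37, and HSPB1 had 106, 123 and 94.0 CPM and -0.23, with an interval of -0.68 to 0.21. These 3 genes did not overlap their controls, nor did 29.2% of all genes. The intervals of DNAJB1 (-0.06 to 0.27), BAG3 (-0.25 to 0.33), HSP90AA1 (-0.14 to 0.14) and HSP90AB1 (-0.13 to 0.10) also contained 0, so a missing call does not show that B. chinense left these genes at the level of the controls.

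P. umbellatus moved the members of Huh7 cells in opposite directions. HSPH1 had 210, 271 and 188 CPM with P. umbellatus, and HSPA8 had 2266, 2605 and 2173. Both genes lay above the controls in all 3 libraries and were highest in replicate 2. HSPH1 rose by 0.88 ± 0.11 on the log2 scale (SE, adjusted p = 0.000517), the largest rise of a member in any comparison with control, and HSPA8 by 0.38 ± 0.07 (adjusted p = 0.00196). HSP90AA1 had 1437, 1666 and 1345 CPM and rose by 0.31 ± 0.07 (adjusted p = 0.0071). HSP90AB1 had 1643, 1759 and 1536 CPM, all above the highest control of 1518 CPM, and rose by 0.18 ± 0.06 (adjusted p = 0.0284). The HSP90AB1 call was lost in 8 of 12 fits that left out 1 library, at adjusted p of 0.0561 to 0.109, namely without any 1 library of control or of B. chinense or without replicates 1 or 2 of P. chinensis.

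HSPB1 was the member that fell with P. umbellatus in Huh7 cells. It had 76.3, 36.7 and 95.3 CPM with P. umbellatus against 131, 124 and 125 CPM in the controls, and fell by 0.83 ± 0.23 on the log2 scale (SE, adjusted p = 0.0169). HSF1, at 33.2, 21.7 and 33.8 CPM, DNAJB1, at 148, 122 and 150 CPM, and BAG3, at 55.6, 32.0 and 51.9 CPM, lay below all their controls and did not pass. Their log2 fold changes were -0.31, -0.19 and -0.36 (adjusted p = 0.0843, 0.0916 and 0.0736), and by DESeq2 all 3 passed (adjusted p = 0.0428, 0.0484 and 0.0395). HSF1, DNAJB1, BAG3 and HSPB1 were all lowest in replicate 2. In all 4 rose and 1 fell of the 8 members, where 19.3% of all genes rose and 17.8% fell, and the groups did not overlap for any of the 8 members nor for 47.6% of all genes. The number called was 8 without P. umbellatus replicate 3, a fit whose share of all genes is not given here.

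Without P. umbellatus replicate 2 the same 5 calls were made with smaller changes. HSPH1 then rose by 0.72 (adjusted p = 3.32e-05), HSPA8 by 0.29 (0.000217), HSP90AA1 by 0.22 (0.00354) and HSP90AB1 by 0.13 (0.0313), and HSPB1 fell by 0.53 (adjusted p = 0.00256), all on the log2 scale. The log2 fold changes of HSF1, DNAJB1 and BAG3 were -0.14, -0.10 and -0.17 without it. These members differ in base composition, and the changes followed it. HSPH1, HSP90AA1, HSPA8 and HSP90AB1, which rose, have transcripts of 39.6%, 41.6%, 45.3% and 47.2% GC. DNAJB1, BAG3, HSF1 and HSPB1, with negative values, have 52.8%, 56.9%, 63.9% and 65.3%. Pearson's r between the log2 fold change and GC content was -0.934 over the 8 members, which share the same libraries, and -0.613 over all 13875 genes, which are not independent replicates. Over all genes r was between -0.0877 and 0.112 in the other 5 comparisons with control. Over the members it was -0.666 in Huh7 with B. chinense, -0.164 in Huh7 with P. chinensis and 0.366 to 0.461 in A549. With the log length of the transcript, r over the members was 0.866 in Huh7 with P. umbellatus and 0.838 with B. chinense. Over all genes these were 0.242 and 0.0659. GC content and length were not told apart.

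An offset for GC content and transcript length in each library was therefore applied in the same edgeR fit. HSPH1 then rose by 0.55 (adjusted p = 0.000103) and HSPA8 by 0.24 (adjusted p = 0.00104) on the log2 scale. HSP90AA1 at 0.05 (adjusted p = 0.368), HSP90AB1 at 0.09 (0.129) and HSPB1 at 0.10 (0.56) no longer passed. HSF1 changed its sign and rose by 0.45 (adjusted p = 0.00247). In this fit 9.42% of all genes rose and 9.86% fell. HSPA8 and HSPH1 were the members that rose in Huh7 cells with P. umbellatus in all 12 libraries, without replicate 2 and with the offset.

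**Figure D4:**
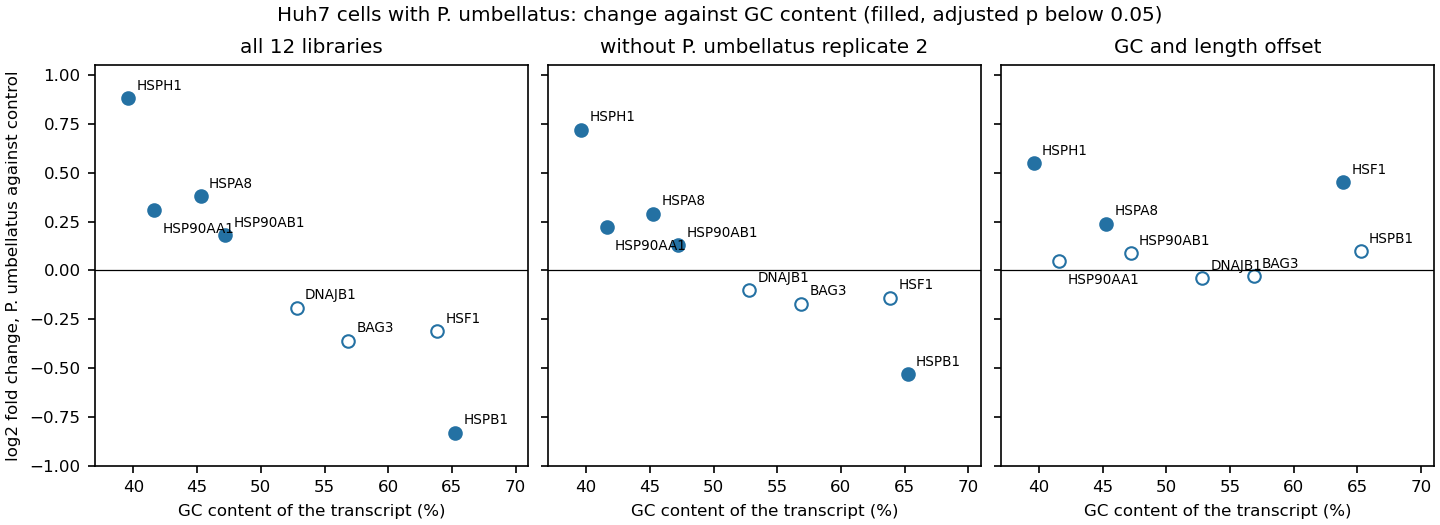
Log2 fold change of each heat shock gene in Huh7 cells with P. umbellatus against control (y axis) by the GC content of its transcript in percent (x axis), with all 12 libraries, without P. umbellatus replicate 2 and with an offset for GC content and length, filled where the adjusted p was below 0.05. With all libraries the values fall from 0.88 for HSPH1 at 39.6% GC to -0.83 for HSPB1 at 65.3%, and with the offset HSPB1 is at 0.10.

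The herbs' effects in the 2 lines were compared by an interaction term in the fit of all 24 libraries, with adjustment over 12924 genes. HSP90AA1 responded differently to all 3 herbs. Its log2 fold change in A549 minus that in Huh7 was -0.48 ± 0.09 with P. chinensis (SE, adjusted p = 0.000369), -0.35 ± 0.09 with B. chinense (adjusted p = 0.0105) and -0.66 ± 0.09 with P. umbellatus (adjusted p = 1.23e-05). With P. chinensis the difference was -0.35 ± 0.08 for HSPA8 (adjusted p = 0.00203), -0.47 ± 0.15 for HSPH1 (adjusted p = 0.0288) and -0.30 ± 0.10 for DNAJB1 (adjusted p = 0.0304), so that 4 of the 8 members differed where 19.6% of all genes did. The number was 7 without Huh7 P. umbellatus replicate 2. Shares of all genes are not given here for the fits of these differences that left out 1 library. The HSPH1 call was lost without A549 control replicate 1 (adjusted p = 0.0575), control replicate 2 (0.0905) or P. chinensis replicate 2 (0.0873), and with the replicate number as a block (0.0549). The DNAJB1 call was lost without A549 control replicate 3 (0.0931), A549 P. chinensis replicates 1 or 3 (0.0666 and 0.0565), A549 P. umbellatus replicates 1 or 3 (0.07 and 0.0699) or Huh7 P. umbellatus replicate 1 (0.0551).

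With B. chinense the responses of the lines also differed for HSP90AB1, by -0.22 ± 0.07 (SE, adjusted p = 0.0289), and so for 2 of the 8 members, where 11.6% of all genes differed. The HSP90AB1 difference was lost, leaving HSP90AA1 alone, without A549 B. chinense replicates 1 or 2, A549 control replicates 1 or 2, Huh7 B. chinense replicates 1 or 3 or Huh7 control replicate 3 (adjusted p = 0.0509 to 0.0719), and the number was 4 without Huh7 P. umbellatus replicate 2. With P. umbellatus 6 of the 8 differed, where 34.4% of all genes did. HSPH1 differed by -1.04 ± 0.15 (adjusted p = 3.32e-05), HSP90AB1 by -0.38 ± 0.07 (adjusted p = 0.000203) and HSPA8 by -0.38 ± 0.08 (adjusted p = 0.000674). HSF1 differed in the opposite direction by 0.54 ± 0.16 (adjusted p = 0.0108), and with the offset for GC content and length by -0.29 (adjusted p = 0.0371). Without Huh7 P. umbellatus replicate 2 the differences were -0.88 for HSPH1, -0.57 for HSP90AA1, -0.33 for HSP90AB1, -0.30 for HSPA8 and 0.36 for HSF1 (adjusted p = 1.55e-05, 1.61e-06, 6.6e-05, 0.000181 and 0.00966). The difference of BAG3, 0.42 ± 0.16, had an adjusted p of 0.0486 and was lost in 20 of 24 fits that left out 1 library, at adjusted p of 0.0514 to 0.153, among them that without Huh7 P. umbellatus replicate 2 (0.23, adjusted p = 0.0665). It held without A549 P. umbellatus replicates 2 or 3 and without Huh7 P. umbellatus replicates 1 or 3.

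Between the herbs, no member differed in A549 cells by edgeR, DESeq2 or limma's voom. P. chinensis against B. chinense called 1.45% of all genes, P. chinensis against P. umbellatus 3.01% and B. chinense against P. umbellatus 0.0513%. At an unadjusted p below 0.05 these comparisons had 2, 1 and 1 of the 9 members, against 14.0%, 16.0% and 7.36% of all genes. In Huh7 cells P. chinensis and B. chinense gave no call among the members, where 7.81% of all genes were called. At an unadjusted p below 0.05 there were 4 of the 8 members and 22.0% of all genes. HSPA8 was nearest, at a log2 difference of 0.22 ± 0.06 (SE, adjusted p = 0.0583). DESeq2 called 1 member and limma's voom 6 in this comparison, and edgeR 5 without P. umbellatus replicate 2 and 1 without P. umbellatus replicate 3.

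Against P. umbellatus, P. chinensis gave higher HSPB1 in Huh7 cells, by 1.07 ± 0.23 on the log2 scale (SE, adjusted p = 0.00451), higher BAG3, by 0.76 ± 0.15 (adjusted p = 0.00267), and higher DNAJB1, by 0.51 ± 0.08 (adjusted p = 0.00117). It gave lower HSPH1, by -0.46 ± 0.11 (adjusted p = 0.00811), and lower HSP90AB1, by -0.18 ± 0.06 (adjusted p = 0.0257). These 5 of 8 members were called where 35.4% of all genes were. Without P. umbellatus replicate 2 all 5 passed, at 0.77 for HSPB1, 0.56 for BAG3, 0.42 for DNAJB1, -0.29 for HSPH1 and -0.13 for HSP90AB1 (adjusted p = 0.00021, 0.000125, 0.000301, 0.0051 and 0.0257). With the offset for GC content and length, HSPB1 (adjusted p = 0.248) and HSPH1 (0.224) were lost, and HSP90AB1 was lost without any 1 of the P. chinensis libraries (0.0635 to 0.085). In settings that kept every library, the HSPH1 and HSP90AB1 calls were each lost in 4 and the HSPB1 call in 2. B. chinense gave lower HSPH1 than P. umbellatus, by -0.73 ± 0.11 (adjusted p = 0.00578), lower HSP90AA1 (-0.31, adjusted p = 0.013), HSPA8 (-0.27, 0.0149) and HSP90AB1 (-0.19, 0.0274), and higher DNAJB1 (0.29, 0.0254). Without P. umbellatus replicate 2 these 5 passed as well, at -0.57 for HSPH1, -0.22 for HSP90AA1, -0.19 for HSPA8, -0.14 for HSP90AB1 and 0.21 for DNAJB1 (adjusted p = 0.000531, 0.00616, 0.0059, 0.0264 and 0.0295). The 5 of 8 were called where 27.3% of all genes were, and the number was 2 without B. chinense replicate 1, 1 without B. chinense replicate 3, 8 without P. umbellatus replicate 3 and 0 in a fit of the 6 libraries compared. With the offset for GC content and length the number was 3. Of the settings that did not leave out a single library, the HSP90AB1 call was lost in 5, HSP90AA1 and DNAJB1 in 4 each, HSPA8 in 2 and HSPH1 in 1.

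The other genes of the chaperone network were described by 9 lists, in which some genes, such as CACYBP, HSPB8 and TCP1, stand in more than 1 list. The list of heat-inducible HSF1 targets also holds genes that are not chaperones, such as HMOX1, SQSTM1 and GADD45B. Whether HSF1 drove the changes of the genes in this list was not tested. In A549 cells part of the HSP90 co-chaperones fell. Of 26 tested, 0 rose with any herb, and 12 fell after P. chinensis, 11 after B. chinense and 9 after P. umbellatus, where 17.1%, 15.0% and 14.8% of all genes fell. The other 14, 15 and 17 did not pass. The median log2 fold changes of the list were -0.25, -0.21 and -0.22. The number that fell with B. chinense was 7 without B. chinense replicate 2. FKBP5, a peptidyl-prolyl isomerase that works with HSP90 at steroid receptors, fell by 0.89, 0.71 and 0.68 on the log2 scale (adjusted p = 7.8e-07, 1.16e-05 and 1.35e-05), and CACYBP by 0.61, 0.47 and 0.54 (adjusted p = 5.79e-05, 0.000701 and 0.0002).

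Of 17 subunits and helpers of the cytosolic chaperonin TRiC and of prefoldin in A549 cells, which fold actin and tubulin, 1 rose with each herb, and 6, 9 and 7 fell (P. chinensis, B. chinense, P. umbellatus). Over all genes, 15.8%, 13.1% and 13.4% rose and 17.1%, 15.0% and 14.8% fell with these herbs. With B. chinense 5 fell without B. chinense replicate 2 or control replicate 2. The TRiC subunit TCP1 fell by 0.44, 0.42 and 0.44 (adjusted p = 4.55e-06, 1.17e-05 and 6.09e-06) and CCT5 by 0.41, 0.39 and 0.36 on the log2 scale. Of 17 mitochondrial chaperones and proteases, 2, 0 and 0 rose and 6, 6 and 7 fell. The mitochondrial HSP90, TRAP1, fell by 0.44, 0.31 and 0.36 and the protease LONP1 by 0.50, 0.45 and 0.39 on the log2 scale with the 3 herbs.

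Lists nearer to the members also held calls in A549 cells, except that none of 4 genes of the HSF family and of HSF1 regulators passed with any herb. Over all genes, 15.8%, 13.1% and 13.4% rose and 17.1%, 15.0% and 14.8% fell with the 3 herbs. The counts of J-domain proteins below are near or below these shares. Of 7 other HSP70 and HSP110 genes, 1, 2 and 1 rose and 2, 3 and 3 fell. HSPA4L, an HSP110 gene, rose by 0.61, 0.54 and 0.44 on the log2 scale (adjusted p = 2.5e-05, 0.000109 and 0.000544) and HSPA14 fell by 0.44, 0.47 and 0.29. HSPA2 had a log2 fold change of -0.11 with P. chinensis (adjusted p = 0.281) and fell by 0.32 and 0.60 with the others. Of 18 cytosolic J-domain proteins, 3, 1 and 2 rose and 2, 2 and 3 fell, DNAJC9 by 0.80, 0.59 and 0.63. Of 10 genes for HSP70 nucleotide exchange and BAG proteins, 0 rose and 3 fell with each herb, HSPBP1 among them by 0.38, 0.32 and 0.25.

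Of 29 other heat-inducible targets of HSF1 in A549 cells, 7, 6 and 6 rose and 8, 11 and 10 fell. Over all genes, 15.8%, 13.1% and 13.4% rose and 17.1%, 15.0% and 14.8% fell. SQSTM1, which carries cargo to autophagy, rose by 0.85, 0.72 and 0.73 on the log2 scale (adjusted p = 1.07e-08, 1.14e-07 and 9.48e-08). HSPB8, a small heat shock protein that acts with BAG3, rose by 1.63, 1.40 and 1.29 (adjusted p = 9.16e-07, 8.07e-06 and 1.39e-05). Its mean level was 8.11 CPM in control and 26.0, 22.2 and 20.8 CPM with the herbs, and it was the 1 gene of the small heat shock protein list tested in A549 cells.

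In Huh7 cells with P. chinensis, 9 of 29 other HSF1 targets rose and 0 fell, where 10.5% of all genes rose and 10.5% fell. GADD45B, a stress-induced regulator of growth arrest, rose by 2.64 on the log2 scale (adjusted p = 1.52e-07), HMOX1, which degrades heme, by 2.23 (adjusted p = 4.01e-06) and HSPB8 by 1.07 (adjusted p = 0.000324). Of 19 J-domain proteins 4 rose, of 4 other HSP70 and HSP110 genes 2 rose and of 17 TRiC and prefoldin genes 2 rose, with no falls in these lists. PDCL3, a helper of TRiC, rose by 0.70 (adjusted p = 0.00179), though the number of TRiC and prefoldin genes that rose is near the share of all genes. Of 26 HSP90 co-chaperones 0 rose and 2 fell, below the shares of all genes. Of 17 mitochondrial genes 1 rose and 3 fell, TRAP1 by 0.48. Leaving out single libraries moved the number of these falls to 1 for the co-chaperones (without any 1 control or without P. chinensis replicates 1 or 3) and to 1 for the mitochondrial genes (without any 1 control or P. chinensis library). Without P. umbellatus replicate 2, 16.6% of all genes rose and 18.3% fell. In that fit 15 of the 29 HSF1 targets rose and 2 fell, 3 of the 26 co-chaperones rose and 5 fell, 5 of the 19 J-domain proteins rose and 2 fell, and 4 TRiC and prefoldin genes rose.

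With B. chinense GADD45B and HMOX1 rose in Huh7 cells, by 0.95 and 1.14 on the log2 scale (adjusted p = 0.0035 and 0.00621), and no other gene of the 9 lists changed. Over all genes 0.519% rose and 0.757% fell. Without P. umbellatus replicate 2, 1 J-domain protein also rose, and 1 J-domain protein and 1 mitochondrial gene fell, where 2.6% of all genes rose and 3.94% fell. With P. umbellatus 9 of the 29 HSF1 targets rose and 5 fell, HMOX1 rising by 1.30 and GADD45B by 0.76. Over all genes 19.3% rose and 17.8% fell, so that the HSF1 targets that fell are near the background. Without replicate 2, 9 of the HSF1 targets rose and 4 fell, where 16.6% of all genes rose and 16.2% fell. Of the 26 HSP90 co-chaperones 4 rose and 7 fell. The phosphatase PPP5C fell by 1.53 (adjusted p = 0.00169) and FKBP8 by 1.27 (adjusted p = 0.000906), whereas CACYBP rose by 0.52 and CHORDC1 by 0.45 on the log2 scale. With P. umbellatus PPP5C had 20.39 ± 11.1 CPM and FKBP8 55.15 ± 19.16 CPM (SD, n = 3). The changes of these genes without replicate 2 are not given here. Without replicate 2, 3 co-chaperones rose and 6 fell. With the offset for GC content and length 1 rose and 4 fell, where 9.42% of all genes rose and 9.86% fell. Of the 19 J-domain proteins 6 rose and 2 fell, of the 4 other HSP70 and HSP110 genes 2 rose, HSPA14 by 0.44, and of the 17 TRiC and prefoldin genes 2 rose, TCP1 by 0.51. The same numbers rose without replicate 2 in the last pair of lists, and with the offset 0 and 1. Of the J-domain proteins 5 rose and 2 fell without replicate 2, and 4 and 2 did with the offset. Of the 10 genes for nucleotide exchange and BAG proteins 2 rose and 4 fell with P. umbellatus, both with and without replicate 2, and 0 and 1 did with the offset. With P. chinensis 1 rose and 1 fell, and 1 and 3 did without P. umbellatus replicate 2. BAG6 fell by 0.77 with P. umbellatus and by 0.63 with P. chinensis (adjusted p = 0.0154 and 0.0481). Of 4 genes of the HSF family and HSF1 regulators, HSF2 rose with P. umbellatus by 0.46 (adjusted p = 0.0221) and HSBP1L1 fell by 1.08 (adjusted p = 0.0449), and neither passed with the offset. Without replicate 2 no gene of this list fell. Of the 17 mitochondrial genes 2 rose and 2 fell, both with and without replicate 2, LONP1 falling by 0.72. These mitochondrial counts, and that of the TRiC and prefoldin genes that rose with P. umbellatus, are below the shares of all genes. The nucleotide exchange and BAG genes that rose with P. umbellatus are near that share.

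**Figure D5:**
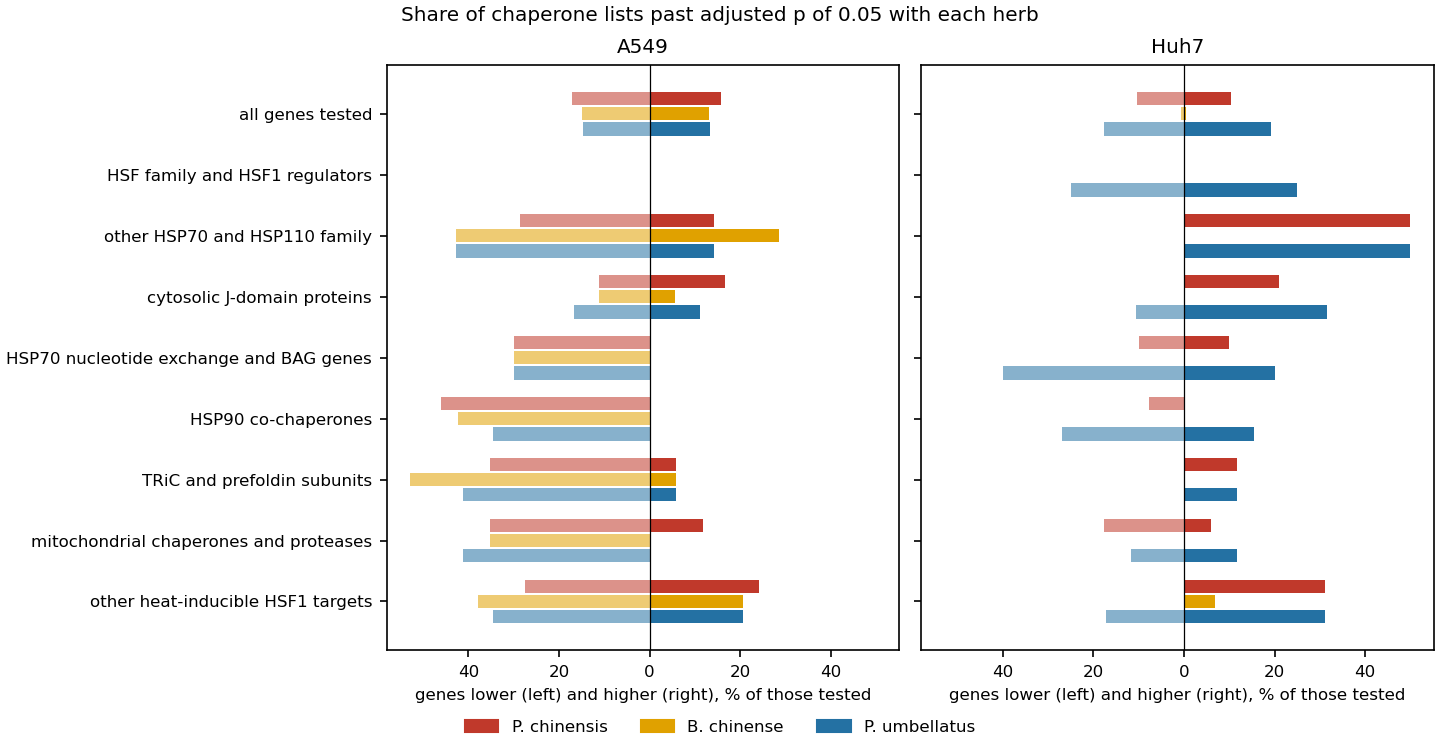
Share of the genes of each list, and of all genes tested, that were lower (left) or higher (right) than control at an adjusted p below 0.05, in percent of those tested, with 1 bar per herb. The HSP90 co-chaperones in A549, of which 12, 11 and 9 of 26 fell, have bars on the left only, and the small heat shock proteins, with 1 gene tested in A549 and 2 in Huh7, are not drawn.

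The genes most like HSP90AA1 and DNAJB1 were taken by Pearson's r of log2 CPM over the 12 libraries of a line, which share the treatments and the scaling. In A549 cells, among 10865 genes, CEP128 (r = 0.984), PTMA (0.976) and KNSTRN (0.975) were most like HSP90AA1, and HSP90AB1 had an r of 0.951 with it. RPS14 (0.853), MAIP1 and PRADC1 (both 0.811) were most like DNAJB1. In Huh7 cells, among 11255 genes, RHOA, KPNA3 and PTP4A1 (r = 0.976, 0.976 and 0.974) were most like HSP90AA1, and ARHGEF18, CAVIN1 and IER2 (0.983, 0.979 and 0.976) most like DNAJB1. Between the 2 genes themselves r was 0.422 in A549 and -0.673 in Huh7. HSPB1 and BAG3 had an r of 0.938 in Huh7 and 0.353 in A549. Of the 12 Huh7 libraries, P. umbellatus replicate 2 had the highest HSP90AA1 and the lowest DNAJB1, HSPB1 and BAG3. The changes with P. umbellatus also followed GC content. Values of r without that library are not given here, so the Huh7 values cannot be read as shared regulation of these genes.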

How the data were processed

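The 10 genes and the 9 lists were chosen with earlier results of these data known. RNA was sequenced as paired ends from libraries made after removal of ribosomal RNA. Per the study's methods, the authors checked reads with FastQC, estimated counts with kallisto against the cDNA of Ensembl release 108 (GRCh38.p13), and kept protein-coding genes with a mean above 5. The deposited values are estimated counts per gene, given as whole numbers and not normalized. The versions of these tools, and how transcripts were summed per gene and rounded, are not given in the sources used here. The table had 14585 genes, of which 14584 were matched to protein-coding genes of a GRCh38 annotation. The 1 other row, at most 0.000999% of a library, was left out. Library totals were 6803648 to 24345364.

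Counts were analysed in R 4.3.3 with edgeR 4.0.16 (quasi-likelihood test, TMM, prior count of 2). Genes with a mean above 5 counts in the 12 libraries of a line were tested, 13633 in A549 and 13875 in Huh7, and the lines were compared on 12924 genes in a fit of all 24 libraries. P-values were adjusted by the Benjamini-Hochberg method over all genes of each of 16 comparisons, and 0.05 was the threshold. Printed CPM were scaled by TMM over all 24 libraries, whereas fold changes within a line came from factors of its own 12 libraries. The 95% intervals of fold changes are normal intervals from the SE. GC content, length and shared 31-base words were taken from the canonical transcripts, and promoter windows from RefSeq, GRCh38.p14.

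All members were named in every comparison. Of each list, the genes named are from the 2 largest rises and 2 largest falls per line among genes called with at least 1 herb and a mean of at least 50 counts, and some were left out. The alternatives were RLE and upper quartile scaling, DESeq2 1.42.0, voom of limma 3.58.1, only the libraries compared, no filter or a mean of at least 50 counts, a minimum absolute log2 fold change of 0.5, a replicate block, an offset for GC content and length, and leaving out each library. The fits were also run on simulated counts with known changes, which held no trend with GC content and no outlying library. The outcome is not given here.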

Additional observations from a re-analysis of the deposited data

Results flagged for a closer look

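The responses of A549 and Huh7 cells to the same herb differed by the test of the difference itself, an interaction term in edgeR's quasi-likelihood fit of all 24 libraries, for 12 pairs of a member and a herb. The values are log2 fold changes in A549 minus those in Huh7. With P. chinensis they were -0.48 for HSP90AA1, -0.47 for HSPH1, -0.35 for HSPA8 and -0.30 for DNAJB1. With B. chinense they were -0.35 for HSP90AA1 and -0.22 for HSP90AB1. With P. umbellatus they were -1.04 for HSPH1, -0.66 for HSP90AA1, -0.38 for HSP90AB1 and -0.38 for HSPA8, and 0.54 for HSF1 and 0.42 for BAG3. With the offset for GC content and length, the difference of HSF1 was -0.29 (adjusted p = 0.0371), and that of BAG3 did not pass (adjusted p = 0.777). Of the 24 fits that left out 1 library, 3 lost HSPH1 and 6 lost DNAJB1 with P. chinensis. HSP90AB1 with B. chinense was lost in 7 and BAG3 with P. umbellatus in 20.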

How the results depend on the processing

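Counts are of members called. With a minimum absolute log2 fold change of 0.5, 0 were called in A549 with any herb, in Huh7 with P. chinensis and in the P. chinensis and B. chinense differences between lines, 2 in Huh7 with P. umbellatus, 3 between P. chinensis and P. umbellatus and 1 between B. chinense and P. umbellatus in Huh7, 3 in the P. umbellatus difference between lines and 5 between control lines. With upper quartile scaling 3 were called in A549 with B. chinense, and 1 between P. chinensis and B. chinense in Huh7, which DESeq2, a minimum mean of 50 counts and the replicate block also gave. DESeq2 called 8 in Huh7 with P. umbellatus, where 19.8% of all genes rose and 20.4% fell. Limma's voom called 6 in Huh7 with P. chinensis, 6 between P. chinensis and B. chinense in Huh7, and 7 and 4 in the P. chinensis and B. chinense differences between lines.

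Only the libraries compared gave 6, 1 and 2 in Huh7 for the herbs in the order P. chinensis, B. chinense, P. umbellatus, 6 between P. chinensis and B. chinense, 3 between P. chinensis and P. umbellatus and 0 between B. chinense and P. umbellatus in Huh7, and 7 in the P. chinensis difference between lines. Against control in Huh7, 20.8%, 2.88% and 3.69% of all genes then rose and 21.4%, 5.21% and 5.15% fell. The offset for GC content and length gave 5 in Huh7 with P. chinensis, 3 with P. umbellatus, 6 between P. chinensis and B. chinense, 3 between B. chinense and P. umbellatus and 4 in the B. chinense difference between lines, and with the replicate block as well 5, 3, 5, 3 and 4. With the offset alone, 16% of all genes rose and 16.3% fell in Huh7 with P. chinensis, and 9.42% and 9.86% with P. umbellatus. The causes of these shifts were not tested. Where no share of all genes stands beside a count, here or above, a shift cannot be read as particular to the members.

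Leaving out 1 library gave 2 to 4, 3 to 5 and 4 to 6 in A549 and 1 to 6, 0 to 0 and 4 to 8 in Huh7 for the herbs in the order P. chinensis, B. chinense, P. umbellatus, 0 to 0 between herbs in A549, and 0 to 5 (P. chinensis and B. chinense), 4 to 7 (P. chinensis and P. umbellatus) and 1 to 8 (B. chinense and P. umbellatus) in Huh7. It gave 3 to 7, 1 to 4 and 5 to 7 in the differences between lines and 7 to 8 between control lines.

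The replicate numbers did not pair the samples: r between deviations of samples with the same number was -0.0712 to 0.0847, over 0.1 in 0 of 18 pairs per line. The replicate block gave 7 members between P. chinensis and P. umbellatus in Huh7.

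Signs changed for called values of HSPB1 in Huh7 with P. umbellatus (-0.83) and of the HSF1 difference between lines (0.54), both with the offset for GC content and length, and otherwise for values that did not pass. With upper quartile scaling DNAJB1 and BAG3 were at 0.03 and 0.03 in A549 with P. chinensis, BAG3 at 0.02 with P. umbellatus, HSP90AB1 at 0.05 in Huh7 with P. chinensis, and HSF1, HSP90AA1 and HSP90AB1 at 0.01, 0.02 and 0.01 with B. chinense. HSP90AB1 in Huh7 with P. chinensis was at 0.00 by voom and 0.01 with a minimum mean of 50 counts, and HSP90AA1 with B. chinense at 0.00 by RLE, DESeq2 and only the libraries compared and 0.01 with a minimum mean of 50 counts. With the offset for GC content and length, alone and with the replicate block, HSF1 in Huh7 was at 0.06 and 0.06 with B. chinense, BAG3 in A549 with B. chinense was at -0.00 with the offset alone, and the P. umbellatus values in Huh7 were 0.45 and 0.46 for HSF1, which passed (adjusted p = 0.00247 and 0.00636), and 0.10 and 0.10 for HSPB1, with -0.29 and -0.28 for the difference of HSF1 between lines (adjusted p = 0.0371 and 0.0532). Leaving out 1 library gave ranges across 0 of -0.08 to 0.01 (DNAJB1, A549 with P. chinensis), -0.02 to 0.07 and -0.08 to 0.03 (BAG3, A549 with B. chinense and P. umbellatus), -0.03 to 0.01 (HSP90AB1, Huh7 with P. chinensis), and in Huh7 with B. chinense -0.05 to 0.01 (HSF1), -0.03 to 0.03 (HSP90AA1) and -0.01 to 0.08 (BAG3). HSP90AB1 there ran from -0.04 to -0.00 as rounded, and was 0.00 without control replicate 1.

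Of 2103 recomputed values of single members 1856 kept their sign and their side of the threshold, and of 2484 list counts 2151 stayed within 1.5 times. Summing HSPA1A and HSPA1B was not run, since HSPA1B was not analysed here. At these depths the precision is set by the spread between 3 replicates.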
